A study of Mus musculus with 5 samples.

Results

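The untreated arrays of a 4C series are described here: 2 of its 5 samples, untreated A and untreated B, both from liver cells of 14.5 dpc (days post coitum) mouse fetuses that were cultured without drug. The other 3 samples, from cells treated with α-amanitin or DRB, were not used. Of the 385000 probes of each array, 57765 lie on chromosome 7, which carries the β-globin locus, and 326901 on chromosomes 8, 10, 11, 12, 14 and 15. The series asked whether DNA contacts persist when transcription is blocked, and these arrays are its baseline of contacts in transcribing cells. The chromatin of both samples was cut with HindIII and NlaIII. The fetal livers yield a mixed, mainly erythroid population, and ligated DNA holds no expression by which the cell type could be checked. Untreated A was read in the Cy3 dye and untreated B in Cy5, so replicate and dye cannot be told apart, and each array also carried a sample in the other dye that was not analysed here.

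The β-globin genes encode the β chains of haemoglobin. Their high output in erythroid cells depends on the locus control region, a group of enhancers some way along the chromosome that comes to lie beside the transcribed globin gene in the nucleus. This arrangement is known as the active chromatin hub. 4C asks which other DNA lies near a chosen fragment, the viewpoint. Fixed chromatin is digested and ligated, inverse PCR from primers in the viewpoint then copies whatever DNA was joined to it, and these copies are read on a microarray. The promoter of β-major, an adult β-globin gene, served as viewpoint. A probe beside a restriction site is bright when fragments from that site were captured, and contacts are generally most frequent with DNA close by on the same chromosome.

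The files list no coordinates for the probes. They were therefore ranked by the running number in their identifiers, and distances are given in probes, or in Mb at an average of 60 kb per 29 probes. The viewpoint was placed at probe 37873 of chromosome 7, the centre of the highest running mean of array B. The centre in array A lies 8 probes away. The high signal beside the viewpoint is thus in part how the viewpoint was found. The centromeric flank, taken as the lower running numbers, holds 37872 probes (78.4 Mb) and the telomeric flank 19892 probes (41.2 Mb). These Mb values are converted from probe counts and are not positions. The study places the locus farther along chromosome 7 than the centromeric flank's converted length, so Mb values there are too short on average. Flanks are compared at matched distance in probes, which need not be the same distance in Mb. Signal is the scanner intensity, with a highest value of 65535 that was reached by 15 probes of chromosome 7 in array A and by 55 in array B. In 16 blocks of array position, the share of a block's probes that lie on chromosome 7 ranged from 14.5% to 15.4%, while the median log2 ratio of B over A over the other chromosomes ranged from -0.29 to -0.04. The number of arrays limits the precision of every value, no p-value is given, and a difference is read against the gap between the 2 arrays.

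Chromosome 7 was set apart by a minority of very bright probes rather than by its typical signal. The median signal on chromosome 7 was 510.8 in array A and 474.3 in array B, against 470.0 and 410.8 over the 6 other chromosomes. The log2 difference of these medians was 0.12 in A and 0.21 in B, larger than the shift of any single other chromosome from their common median (at most 0.06 in A and 0.08 in B). With the mean of log2 signal in place of the median, the difference, averaged over the arrays, was 0.37 in place of 0.16. The mean signal of chromosome 7 was 2.05 times that of the other chromosomes in A and 2.10 times in B. The 99th percentile of signal was 38532 on chromosome 7 against 11811 in A, and 37285 against 13886 in B.

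A probe is called bright when its signal exceeds the 95th percentile of the 6 other chromosomes on the same array, which was 2051 in A and 2142 in B. Over all 7 chromosomes 5.86% of probes were bright in A, 6.13% in B and 3.08% in both. On chromosome 7 the bright probes numbered 6185 in A (10.7%), 7244 in B (12.5%) and 3576 in both (6.19%). The other chromosomes, for which the pooled share of 5% is set by the threshold, ranged singly from 4.72% to 5.46% in A and from 4.79% to 5.36% in B. Chromosome 7 therefore exceeded each of them in both arrays by more than the gap between arrays. Chromosomes 8 and 11 had the highest shares of the 6, at 5.46% and 5.35% in A and 5.20% and 5.36% in B. With the 99th percentile as threshold, the pooled share of the other chromosomes is set at 1%. On chromosome 7 it was then 3.95% in A and 3.47% in B, 3.71% on average.

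The bright probes of chromosome 7 were also brighter than those elsewhere. Their median signal was 7497 in A and 7115 in B, against 4090 and 5064 for bright probes of the other chromosomes. The probes that were bright in neither array had medians of 467.2 in A and 411.7 in B on chromosome 7, close to the 452.1 and 390.2 of the other chromosomes. For comparison, the 210 control probes for the human β-globin locus had medians of 367.8 and 317.5, and 1.43% of them were bright in each array.

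**Figure D1:**
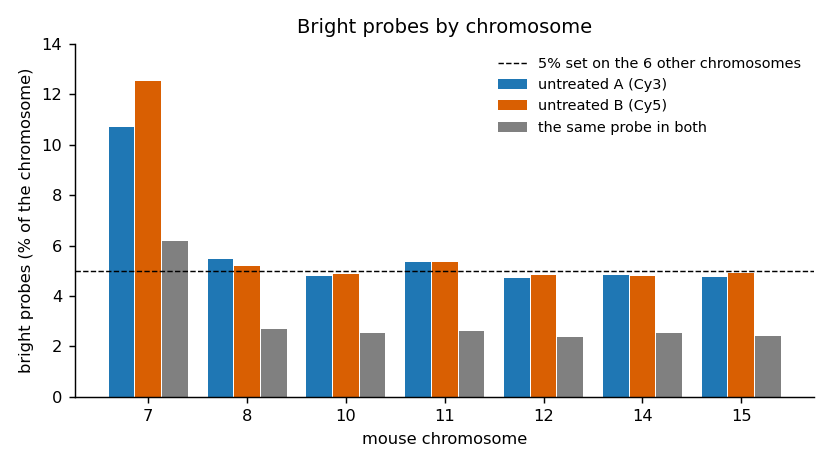
The share of bright probes (vertical axis, percent of the probes of a chromosome) is drawn for each mouse chromosome on the array, with bars for untreated A, untreated B and probes bright in both. Chromosome 7 stands at 10.7% and 12.5%, while the 6 other chromosomes lie near the dashed line at 5% that their pooled threshold sets.

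Signal was highest beside the viewpoint and lower with distance on both flanks. Of the 58 probes within 29 probes of the viewpoint, 57 were bright in A and 57 in B. Their median signal was 59770 in A and 62610 in B. In the next class, from 30 to 58 probes (about 0.06 to 0.12 Mb), all 58 probes were bright in both arrays, with medians of 50355 and 52017. The stretch within 0.12 Mb of the viewpoint was thus nearly filled with bright probes. From 59 to 116 probes (to 0.24 Mb) the share was 77.6% in A and 86.2% in B, and from 117 to 232 probes (to 0.48 Mb) it was 59.5% and 71.1%.

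Beyond about 0.5 Mb most probes were dim, and bright probes stood among them. The median signal was 3416 in A and 6090 in B at 0.24 to 0.48 Mb, and 571.7 and 890.9 at 0.48 to 0.96 Mb, while the share of bright probes in this last class was 30.6% and 36.6%. The decline was not even. From 0.96 to 1.92 Mb the share was 30.2% in A, near that of the class before it, and 42.2% in B, above it. From 1.92 to 3.84 Mb it was 15.5% and 19.0%, and from 3.84 to 7.68 Mb it was 15.98% and 20.99%. These classes differed from each other by less than the arrays did.

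Farther out the share approached that of the other chromosomes without reaching it. It was 10.9% in A and 13.1% in B from 7.68 to 15.4 Mb and 11.1% and 13.6% from 15.4 to 30.0 Mb. From 30.0 to 41.2 Mb it was 7.97% and 9.10%. The lowest class, at 41.2 to 62.1 Mb on the centromeric flank, still had 6.37% in A and 6.45% in B, above every other chromosome in both arrays. The last 7872 probes of that flank, 62.1 to 78.4 Mb away, had 8.33% and 8.16%. The end of the chromosome farthest from the viewpoint therefore had a higher share than the class before it in both arrays, by more than the gap between them. The median of all probes there was also higher, at 544.3 in A and 499.6 in B against 483.1 and 421.2, so this stretch differed in its dim probes too.

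The decline can be put as 1 slope per array. The least squares slope of log2 mean signal on log2 probe distance, from 1 to 500 windows of 29 probes, was -0.56 in A and -0.55 in B. With only the classes from 465 probes (0.96 Mb) outward the slope, averaged over the arrays, was -0.36 in place of -0.56. A single power of distance thus describes the range only roughly, being steeper near the viewpoint than far from it.

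**Figure D2:**
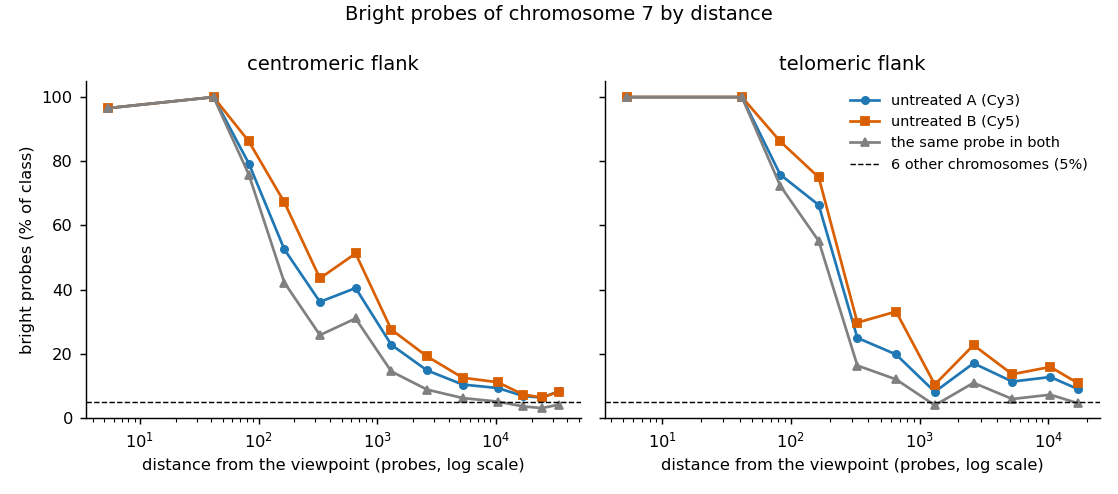
The share of bright probes (vertical axis, percent) is plotted against distance from the viewpoint in probes (log scale) for the centromeric and the telomeric flank, with lines for A, B and probes bright in both. Shares start near 100% and, on the telomeric flank, are at 8.19% in A and 10.5% in B in the class from 929 to 1856 probes before they are higher again. The dashed line at 5% is the share on the other chromosomes in each array, for which the share in both arrays is 2.54%.

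The flanks differed at matched distance in probes, and the flank with more bright probes changed along the way. Of 11 distance classes that both flanks reach, the same flank had the higher share in both arrays in 9, the centromeric in 3 and the telomeric in 6. The 3 centromeric ones were the classes from 0.48 to 3.84 Mb, and the telomeric ones lay on either side of these. Within 0.06 Mb of the viewpoint the difference was 1 dim centromeric probe of 29. At 0.96 to 1.92 Mb the share was 40.5% in A and 51.3% in B on the centromeric flank against 19.8% and 33.2% on the telomeric. At 1.92 to 3.84 Mb it was 22.8% and 27.6% against 8.19% and 10.5%. This last difference was 14.7 percentage points in A and 17.1 in B, several times the gap of 2.48 points between the arrays. With the 99th percentile as threshold it was 8.84 points in A and 5.17 in B, 7.004 on average in place of 15.9.

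In all 4 classes beyond 3.84 Mb the telomeric flank had the higher share in both arrays, but by less. The difference was smallest at 7.68 to 15.4 Mb, with 10.5% in A and 12.6% in B on the centromeric flank against 11.4% and 13.7%. It was largest at 15.4 to 30.0 Mb, with 9.37% and 11.2% against 12.8% and 15.96%. The centromeric minus the telomeric share was -3.43 points in A and -4.78 in B, against a gap between the arrays of 1.34. With the 99th percentile this was -2.02 points in A and -1.34 in B, -1.68 on average in place of -4.11. At 30.0 to 41.2 Mb the shares were 6.90% and 7.33% against 9.03% and 10.9%.

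Contacts of a chromosomal region were read from windows of 29 probes laid side by side outward from the viewpoint. A window is called high when its mean signal exceeds the 99th percentile of such windows on the 6 other chromosomes, which was 3477 in A and 3730 in B. Over all 7 chromosomes 2.62% of windows were high in A, 2.65% in B and 1.46% in both. On the 1990 windows of chromosome 7, 232 were high in A (11.7%), 227 in B (11.4%) and 154 in both (7.74%). On the 11270 windows of the other chromosomes, where 1% is set by the threshold, 113 were high in each array but only 32 (0.284%) in both. Of the chromosome 7 windows high in A 66.4% were high in B, and of those high in B 67.8% were high in A, against 28.3% either way elsewhere. These overlaps have different backgrounds, since 11.4% of all chromosome 7 windows but 1% of the others were high in B, and beyond 2 Mb of the viewpoint they were 59.8% and 62.1%. With windows of 59 probes 13.0% of chromosome 7 windows were high in both arrays.

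Close to the viewpoint every window was high in at least 1 array. Moving outward, the first window that was high in neither array came at 0.84 to 0.90 Mb on the centromeric flank and at 0.60 to 0.66 Mb on the telomeric. Within 2 Mb, 48 of 68 windows were high in A, 50 in B and 44 in both. Beyond 2 Mb, 184 of 1922 windows (9.57%) were high in A, 177 (9.21%) in B and 110 (5.72%) in both. Most high windows thus lay beyond 2 Mb, as did most windows. The share that was high was far larger within 2 Mb, at 70.6% in A and 73.5% in B.

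The distant high windows were spread unevenly over the flanks. At 1.92 to 3.84 Mb, 17 of 32 centromeric windows were high in A, 14 in B and 12 in both, while on the telomeric flank there were 0 in A, 1 in B and 0 in both. At 15.4 to 30.0 Mb the order was the other way: 47 of 244 telomeric windows were high in A and 52 in B against 18 and 19 centromeric ones. The longest stretch with no high window in either array spanned 103 windows on the centromeric flank, from 30.5 to 36.7 Mb. On the telomeric flank it spanned 52 windows, from 32.3 to 35.4 Mb. The farthest centromeric stretch, from 62.0 to 78.3 Mb, had 8 high windows of 271 in each array and 2 in both, against 11 in A, 8 in B and 6 in both of 349 in the stretch before it. Its higher share of bright probes thus did not go with more windows that were high in both arrays.

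**Figure D3:**
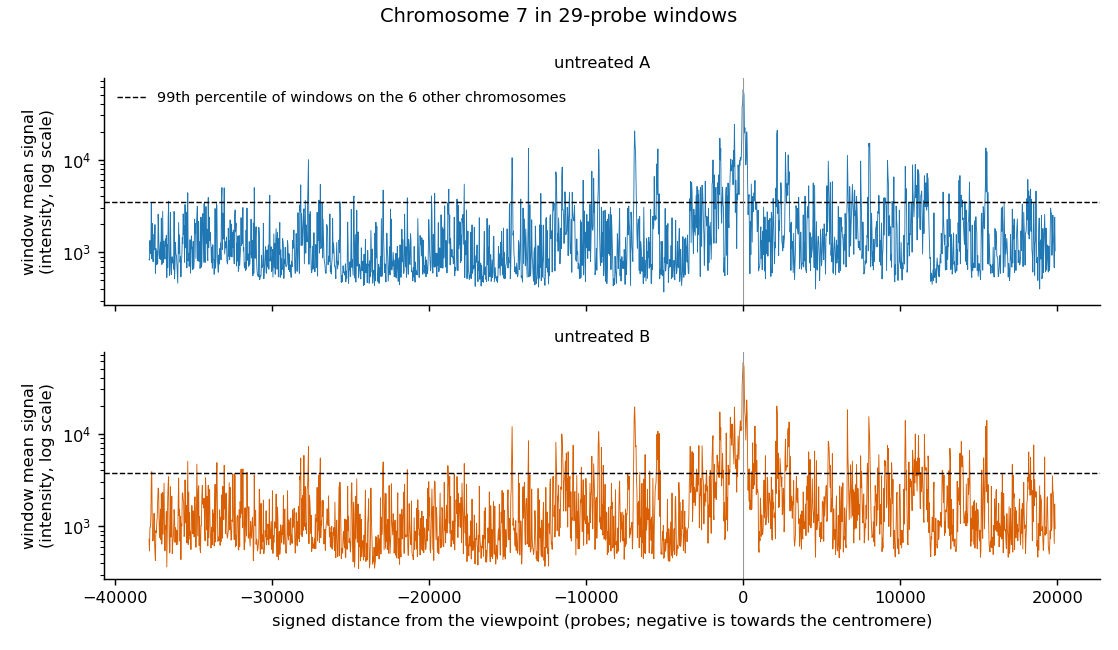
Mean signal of 29-probe windows (vertical axis, intensity on a log scale) is plotted along chromosome 7 against signed distance from the viewpoint in probes, for untreated A above and untreated B below. The dashed line is the threshold for high windows, 3477 in A and 3730 in B, and the peaks at 6917 probes on the centromeric and 2132 probes on the telomeric flank stand in both arrays.

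The strongest windows beyond 2 Mb, chosen by the lower of their values in the 2 arrays, are given without a test. On the centromeric flank the highest lay 6917 probes (14.3 Mb) from the viewpoint, with a mean signal of 20291 in A and 19347 in B. Of its 29 probes 27 were bright in A, 26 in B and 25 in both, so nearly the whole window was bright. The next lay 1494 probes (3.09 Mb) away at 16967 in A and 17115 in B, with 17 probes bright in both. The third lay 5438 probes (11.3 Mb) away at 13010 in A and 10604 in B, with 11 probes bright in both. The arrays differed more in this window than in the first 2, with 18 bright probes in A and 13 in B.

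On the telomeric flank the highest window lay 2132 probes (4.41 Mb) away, beyond the stretch with almost no high window, at 18615 in A and 19785 in B. It held 15 bright probes in A, 19 in B and 14 in both. The second, 7990 probes (16.5 Mb) away, had means of 14907 and 15249 with 13 probes bright in both. The third, 15501 probes (32.1 Mb) away, had means of 12109 and 13825 but rested on fewer probes, 11 bright in A, 13 in B and 9 in both. Its median probe was at 793.1 in A and 1180 in B, while its highest was at 63710 and 63720.

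The highest windows of the 6 other chromosomes by the same measure were lower than all of these. Their means lay between 4937 and 6473 in A and between 4921 and 6131 in B, 1.42 to 1.86 times the threshold in A and 1.32 to 1.64 times in B. On chromosomes 14 and 15 they rested on 3 probes bright in both arrays, and on chromosome 8 on 4. The window of chromosome 12 was of another kind: its means were 6167 and 5398, and 13 of its 29 probes were bright in A, 16 in B and 12 in both. Its median probe, at 1891 in A and 2231 in B, was higher than in any of the other 5 windows.

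With windows read by their mean signal, arrays A and B ranked the probes of chromosome 7 and its windows about equally alike. On the other chromosomes such windows were less alike than probes. These correlations describe 2 arrays of 1 probe set, whose probes share sequence and position and are not replicates. Over single probes, Spearman's rho was 0.70 on chromosome 7 (57765 probes) and between 0.72 and 0.73 on the other 6 chromosomes. Over windows it was 0.70 on chromosome 7 (1990 windows) and between 0.58 and 0.65 on the others (1675 to 2101 windows each). On chromosome 7 it was 0.78 with window medians and 0.82 with means of log2 signal, above the value for probes. These are not given for the other chromosomes. Among probes bright in neither array rho was still 0.70 on chromosome 7 and 0.71 elsewhere, so dim probes also kept much of their order. Among probes bright in both it was 0.55 and 0.64.

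The share of bright probes that the arrays had in common followed the share of probes that were bright at all. Within 58 probes of the viewpoint 100% of the probes bright in A were bright in B, but there 98.3% to 100% of all probes were bright in B, so this overlap was fixed by how many were bright. At 0.24 to 0.48 Mb the overlap was 81.9% where 71.1% of probes were bright in B, and at 1.92 to 3.84 Mb it was 59.7% where 19.0% were. At 41.2 to 62.1 Mb 49.1% of the probes bright in A were bright in B, where 6.45% of all probes were. In the last class the overlap was 50.0%, near the 50.7% of the other chromosomes.

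The rank agreement over all probes of a class was higher far from the viewpoint than over most of the first 2 Mb. Spearman's rho was 0.49 within 29 probes, 0.78 from 30 to 58 probes, 0.74 at 0.12 to 0.24 Mb and 0.54 at both 0.24 to 0.48 Mb and 0.96 to 1.92 Mb. It was 0.68 from 7.68 to 15.4 Mb and from 15.4 to 30.0 Mb, and 0.73 in each class beyond 41.2 Mb, as on the other chromosomes. The first of these classes holds 58 probes, of which 9 in A and 20 in B were at the scanner maximum. The level of the bright probes was lower with distance. Their median was 28439 in A and 20917 in B at 0.12 to 0.24 Mb, 8018 and 7369 at 15.4 to 30.0 Mb, and 4565 and 4811 at 41.2 to 62.1 Mb. Beyond 41.2 Mb both the level and the overlap were thus close to those of the other chromosomes, while the share of bright probes was still above theirs.

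The agreement was lopsided in the middle range. At 0.96 to 1.92 Mb 71.4% of the probes bright in A were bright in B, but only 51.0% of those bright in B were bright in A. Both percentages count the same 200 probes, out of 280 bright in A and 392 in B, so they differ only through these totals. The share of bright probes in B was 1.40 times that in A at this distance, 1.31 times at 3.84 to 7.68 Mb, 1.22 times at 15.4 to 30.0 Mb, and 1.01 and 0.98 times in the last 2 classes. On the other chromosomes the ratio lay between 0.95 and 1.03. In every class from 0.12 to 41.2 Mb array B had more bright probes than A, and beyond that the arrays were nearly equal. The order of the arrays depends on the threshold. With the 99th percentile, 3.95% of all chromosome 7 probes were bright in A and 3.47% in B. B is the array in Cy5, and dye and sample cannot be told apart in these differences.

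**Figure D4:**
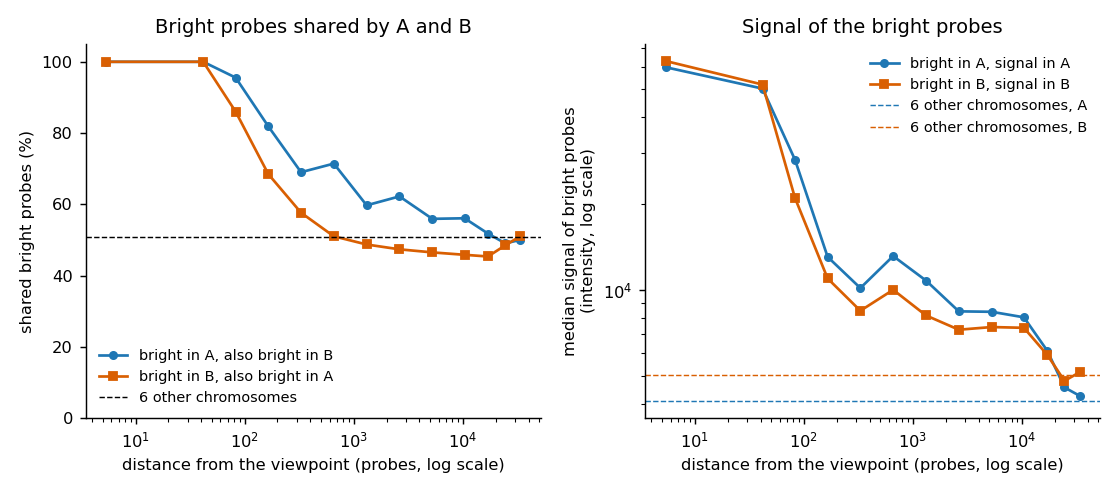
The left plot shows, by distance from the viewpoint in probes (log scale), the percent of probes bright in 1 array that were also bright in the other, and the right plot the median signal of the bright probes of each array (intensity, log scale). The shared percent near the viewpoint is fixed by the nearly full share of bright probes there. Both measures come near the dashed values of the 6 other chromosomes in the last 2 classes, 49.1% and 50.0% of the probes bright in A against 50.7%.

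Agreement also depended on the level of signal. Of the top 20% of chromosome 7 probes in A, 61.8% were in the top 20% of B, and of the top 10% and 5%, 48.7% and 45.7%. On the other chromosomes these overlaps were 64.5%, 58.0% and 50.7%. At the top 1% the order was the other way, 48.5% on chromosome 7 against 44.3%, but without the 2 Mb on each side of the viewpoint it was 38.3%. The overlap at the very top of chromosome 7 was thus lower without the probes near the viewpoint, where the top 1% was taken anew from the remaining probes.

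The spread between the arrays was wider for bright probes than for dim ones. After centring the log2 ratio of B over A on its median, the SD of the ratio on chromosome 7 was 0.96 in the lowest 10% of signal in A and 1.80 in the highest 10%, and 0.44 and 2.32 with the probes ranked in B. The probes were ranked on a value that enters the ratio. The SD in such a class, and both the sign and the size of its median ratio, therefore depend on the ranking. They are given as a description only. The highest 10% of B had a median ratio of 2.25 on chromosome 7 and 0.56 elsewhere, but these classes start at different signals, 3334 and 1180. The highest 10% of A had -0.77 and -0.40, starting at 2286 and 1221. In the highest 1% the order was the other way: 0.60 on chromosome 7 and 1.88 elsewhere for probes ranked in B, and -0.25 and -0.80 for probes ranked in A. These classes also start at different signals, 37324 on chromosome 7 and 13886 elsewhere in B, and 38532 and 11816 in A.

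Bright probes lay next to each other on chromosome 7 more often than elsewhere. After a probe bright in A, the next probe was bright in A in 26.3% of cases on chromosome 7 and in 8.74% to 10.7% on the other chromosomes. In B these shares were 31.1% and 10.7% to 12.9%. Beyond 2 Mb of the viewpoint they were still 21.6% in A and 26.1% in B. More of all probes were bright on chromosome 7 to begin with, at 10.7% in A and 12.5% in B. Beyond 2 Mb this share was 9.68% and 11.3%, and on the other chromosomes 4.72% to 5.46% and 4.79% to 5.36%. The neighbour shares within 1 array therefore do not alone show closer clustering on chromosome 7. Neighbours read across arrays do not share a hybridisation. After a probe bright in A, the next was bright in B in 22.1% of cases beyond 2 Mb, 1.97 times the share of bright probes in B there. On the other chromosomes this was 1.40 to 1.69 times. The share of bright probes on chromosome 7 also falls with distance beyond 2 Mb, and the part of this fall in the ratio was not tested.

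The correlation of signal between probes of chromosome 7 reached over many probes. The fall of signal with distance from the viewpoint was left in these values, and its part in them was not tested. The correlation of log2 signal in A with that in B at the next probe was 0.22 on chromosome 7, 0.15 beyond 2 Mb and 0.06 to 0.08 on the other chromosomes, over 48583 to 60932 neighbour pairs for each of these. At 29 probes, the length of a window, it was 0.14, 0.08 and 0.01 to 0.04, and at 60 probes it was 0.12, 0.06 and 0.02 to 0.03. All of these are weak correlations between single probes, and the values on chromosome 7 beyond 2 Mb exceeded those of every other chromosome at each lag computed. Chromosome 8 had the highest values of the 6 from a lag of 2 probes onward.

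**Figure D5:**
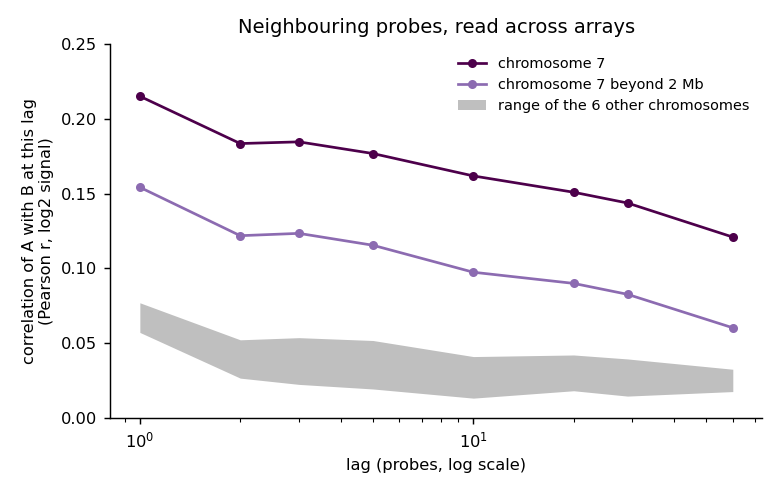
The correlation of log2 signal in A with that in B at a probe further along (vertical axis, Pearson r) is plotted against the lag in probes (log scale), with lines for chromosome 7 whole and without the 2 Mb on each side of the viewpoint, and a band for the range of the 6 other chromosomes. At a lag of 29 probes the values are 0.14, 0.08 and 0.01 to 0.04.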

How the data were processed

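4C products of the β-major promoter, from cultured fetal liver cells without drug, were measured on 2 microarrays. The authors deposited the signal intensity of 1 dye per array, extracted with NimbleScan 2.3.19 per the file headers, without background correction or normalization, and replicates were not pooled. The labels and the study's methods give running means of 29 probes on this uncorrected signal, which was kept here. Their threshold from shuffled data was not used; windows and probes were read against the 6 other chromosomes of the same array. A dye bias or a difference in labelling between the arrays therefore stays in every level. Only the perfect-match column was used, the mismatch and position columns being 0 throughout. The members, lists and windows were chosen with earlier results of these data known. Windows were named by rule: beyond 2 Mb, the 3 highest on each flank by the lower of both arrays, at least 10 windows apart, and the highest of each other chromosome.

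Groups and replicate letters came from the sample labels. The design holds 1 group of 2 arrays, so no test was run, and every value is given for each array. Arrays have no read depth. Tables were handled with pandas 2.3.3 under Python 3.11.15, ranks and correlations used scipy 1.17.1 with numpy 2.4.6, and matplotlib 3.10.9 drew the figures. The scripts were tested on simulated data with known answers. Alternatives varied the percentile, the average, the window, normalization, the range of distance, the viewpoint and the array left out. The genome build of the probes is NCBI m34 in the study, and no coordinates were used. The drug-treated samples were not analysed here.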

Additional observations from a re-analysis of the deposited data

Results flagged for a closer look

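The 124 probes listed apart for the mouse β-globin locus, which entered no comparison above, had a median signal of 49521 in untreated A against 367.8 for the human β-globin control probes. In untreated B the same probes had a median of 54141 against 317.5.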

How the results depend on the processing

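No value changed direction under any alternative. Values are means over both arrays, except the share of windows high in both arrays and the correlation of windows, which are single values with no gap between arrays to read a change against. No paired analysis was possible because only 1 group was used and no test was run. The level of chromosome 7 over the other chromosomes (0.16, log2) was 0.37 with the mean of log2 signal. The share of bright probes (11.6%) was 3.71% at the 99th percentile, which sets the pooled share of the other chromosomes at 1% in place of 5%. It was then higher in A (3.95%) than in B (3.47%). The slope (-0.56) was -0.82 with medians per class and -0.36 with only the classes from 0.96 Mb outward. It was -0.68 with the other chromosomes subtracted and -0.60 with distance by running number. The flank difference at 99th percentile was 7.004 points at 1.92 to 3.84 Mb (15.9) and -1.68 at 15.4 to 30.0 Mb (-4.11). The share of high windows (11.5%) was 8.99% with 15 probes, 17.3% with 59, 9.75% with running medians, 15.98% with means of log2 signal, 5.90% at the top 0.1% and 12.2% with the viewpoint of array A. Under the same settings the share high in both arrays (7.74%) was 5.53%, 13.0%, 6.03%, 12.2%, 4.07% and 8.04%. The correlation of windows between arrays (0.701) was 0.660 with 15 probes, 0.764 with 59, 0.778 with medians, 0.824 with means of log2 signal, 0.677 without the 2 Mb on each side, 0.701 after quantile normalization and 0.702 with signal centred by array position. The causes were not tested. With 1 array left out, which gives the value of the other array and is no check of stability, the level ranged from 0.12 to 0.21, bright probes from 10.7% to 12.5%, the slope from -0.56 to -0.55, the flank difference from 14.7 to 17.1 near and from -4.78 to -3.43 far, and high windows from 11.4% to 11.7%. Centring by array position, the viewpoint of array A and distance by running number were chosen after seeing the data. A signal at the scanner maximum gives only a lower bound of the true level there.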
